A study of Homo sapiens with 16 samples.

Results

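Keratins are the intermediate filament proteins of epithelial cells, and 10 of their genes were examined in 16 RNA-seq libraries of MCF10A cells, out of 26475 genes in the count table. The members were taken by name: the basal keratins KRT5, KRT14 and KRT15, the stress keratins KRT6A, KRT6B, KRT16 and KRT17, and the simple keratins KRT8, KRT18 and KRT19. No expression value entered their choice by name, although earlier results from these libraries were known. All 10 were in the table, and 9 of the 10 passed the filter on low counts. KRT19 did not pass and was described by its counts alone.

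MCF10A is a non-tumorigenic, spontaneously immortalized human breast epithelial line, so that all 16 libraries come from 1 line. The cells were grown in plates, in medium with insulin, epidermal growth factor, hydrocortisone, cholera toxin and horse serum. There were 4 groups of 4 libraries. The control received DMSO without collagen. The collagen group received DMSO and then collagen I (0.05 mg/mL), which stayed on the cells for 24 h before harvest. The DDR1i group received the same collagen with 2 µM DDR1-IN-1, an inhibitor of the collagen receptor kinase DDR1, for 48 h. The RUNXi group received the same collagen with 5 µM AI-10-104, which inhibits RUNX transcription factors by blocking their binding to CBFβ, also for 48 h. No group received an inhibitor without collagen. The labels do not say whether the 4 libraries of a group came from separate cultures, so p-values measure only the spread between these libraries, which may be technical. The study set out to compare each inhibitor with collagen, to ask how DDR1 and RUNX activity bear on breast epithelial differentiation.

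Keratin filaments are built from pairs of a type I and a type II protein, and neither type forms filaments alone. KRT5 (type II) with KRT14 (type I) makes the network of basal epithelial cells, and KRT15 is a further type I keratin of basal cells. KRT6A and KRT6B (type II) with KRT16 and KRT17 (type I) are induced at wound edges and under stress in stratified epithelia, and KRT8 (type II) with KRT18 and KRT19 (type I) fills luminal and other simple epithelial cells. In GRCh37 the type II genes lie on chromosome 12 and the type I genes on chromosome 17, with the exception of KRT18, which lies on chromosome 12 next to KRT8.

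These genes arose by duplication, and some are so alike that reads are hard to assign. The coding sequences of KRT6A and KRT6B were identical at 97.5% of aligned bases, those of KRT6B and KRT6C at 98.5%, those of KRT14 and KRT16 at 87.6%, those of KRT14 and KRT17 at 83.8% and those of KRT16 and KRT17 at 78.1%. In the transcripts as annotated, 9.26% of the 150-base windows of KRT6A and 12.7% of those of KRT6B occurred unchanged in another gene, in both cases most often in KRT6C. The share was 0.605% for KRT14, 0.729% for KRT16 and 0 for KRT8. Counts of KRT6A and KRT6B are therefore less certain than those of KRT14 and KRT16. KRT8 and KRT18 lie on opposite strands and their annotated ends overlap, and since the sources used here do not say whether counting used strand, reads in the overlap cannot be told apart.

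Total counts were 12184619 to 44332378 per library, and levels below are in CPM (counts scaled to a fixed library size), on library sizes scaled by the trimmed mean of M-values (TMM). Collagen replicate 3 was removed by the authors as an outlier on principal components and was left out of the tests here, and its values are given with the others. Leaving it out changes how many genes pass. With it, the genes called over the whole table fell from 334 to 9 for DDR1i against collagen and from 549 to 60 for RUNXi against collagen, so the keratin differences from collagen are given both ways. In bulk RNA, fewer cells of a type and less RNA per cell cannot be told apart.

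The basal and stress keratins made up most of the keratin RNA of these cells. Per kilobase of transcript, the mean level over all 16 libraries was 4216 CPM for KRT5, 2042 for KRT14, 1411 for KRT6A and 1330 for KRT17. It was 299 for KRT18, 64.3 for KRT8, 45.9 for KRT16, 12.2 for KRT15, 11.3 for KRT6B and 0.184 for KRT19. KRT5 was the highest of all 26475 genes by mean CPM. In every library KRT5 lay above KRT14, KRT17 above KRT18, KRT18 above KRT8, KRT16 above KRT15 and KRT6B above KRT19. The order did not hold in every library between KRT14 and KRT6A, between KRT6A and KRT17, between KRT8 and KRT16 or between KRT15 and KRT6B. Together the 10 genes took 1.96% ± 0.164 (SD, n = 4) of all counts in the control, 1.93% ± 0.239 (n = 3) in collagen, 1.47% ± 0.141 (n = 4) in DDR1i and 2.13% ± 0.126 (n = 4) in RUNXi. The DDR1i libraries, at 1.27% to 1.61%, all lay below the other 12, which ranged from 1.78% to 2.29%.

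**Figure D1:**
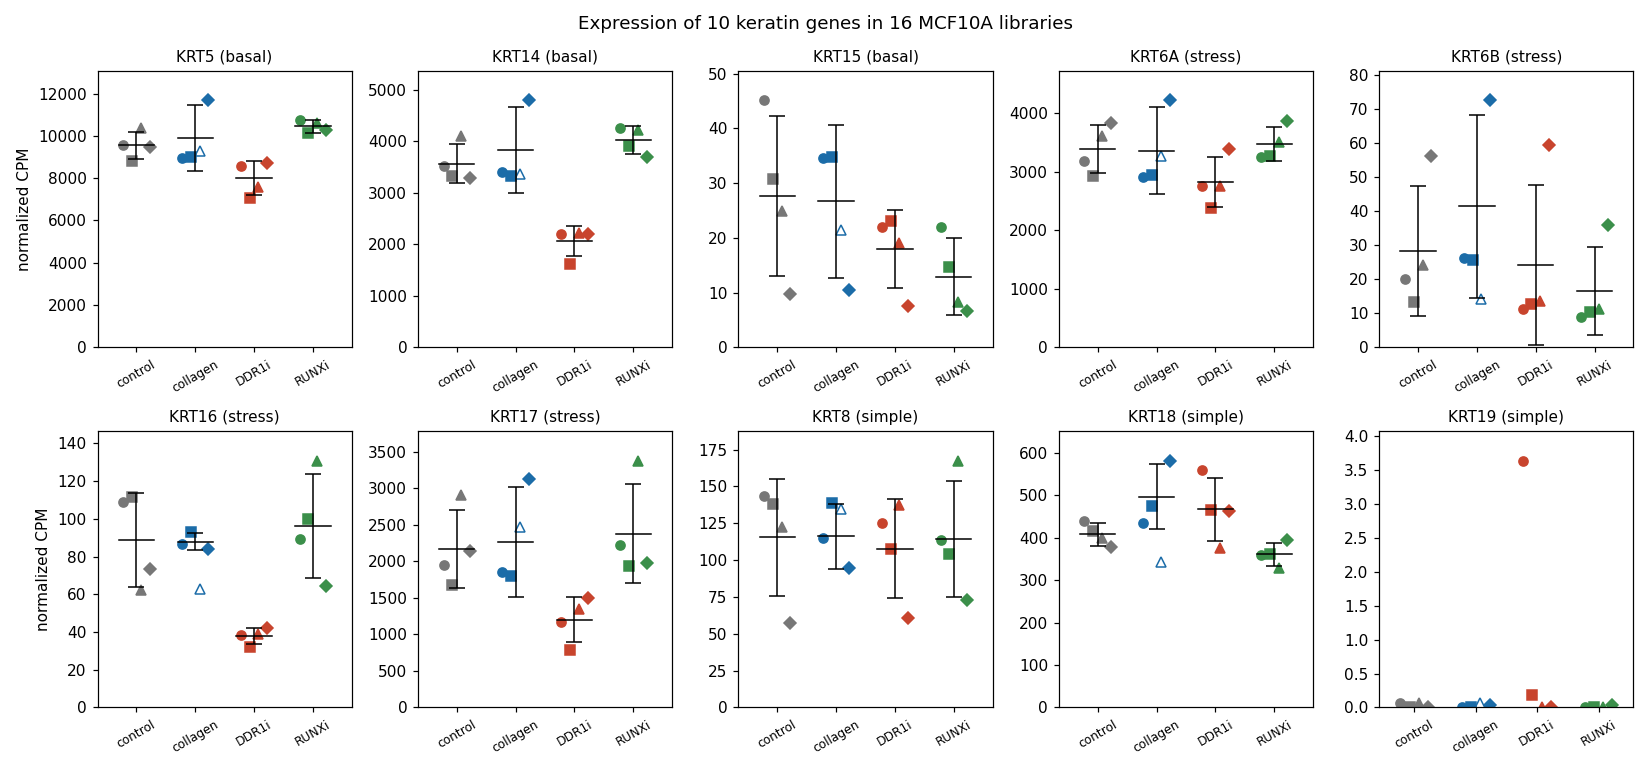
Normalized CPM of the 10 keratin genes (vertical axes, each from 0) in the control, collagen, DDR1i and RUNXi groups. Circles, squares, triangles and diamonds are the libraries numbered 1, 2, 3 and 4, horizontal lines are means and bars SD, with collagen replicate 3 (open triangle) left out of both, and no mean is drawn for KRT19. All 4 DDR1i libraries lie below all 12 others for KRT14 (at most 2225 CPM), KRT16 (at most 42.2) and KRT17 (at most 1497). How many of all genes do so was not counted.

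The paper describes MCF10A as holding both basal and luminal cells, and the levels of markers were read. KRT5, KRT14, KRT15, TP63 (47.7 to 75.6 CPM) and ITGA6 (580 to 1105 CPM) were counted in all 16 libraries. Of the luminal markers, EPCAM, CD24, MUC1, CLDN7, GATA3 and FOXA1 were also counted in all 16, with GATA3 at no more than 19.3 CPM, whereas ESR1 reached no more than 1.53 CPM and KIT had 1 count in all. The 11 luminal markers, which include no keratin, summed to between 141 and 248 CPM per library. Among markers of its luminal 1 organoid cluster the paper also lists KRT8, KRT18, KRT19, KRT7 and KRT81. Here KRT7 stood at 1678 to 3281 CPM and KRT81 at 3412 to 5538 CPM. Of the 6 myoepithelial markers, TAGLN (17.7 to 64.7 CPM), ACTA2 (3.20 to 12.8) and MYLK (0.242 to 2.75) were counted in all 16 libraries. CNN1 had 0 counts in all 16. The 6 summed to between 30.1 and 78.2 CPM per library. Of the 7 fibroblast markers, COL3A1 had 0 counts in all 16 libraries and DCN (1.39 to 30.1 CPM) was counted in all 16. The 7 fibroblast markers summed to no more than 32.9 CPM.

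KRT14 and KRT16 were lower with DDR1i than with collagen alone. Of the 9 keratins tested, 2 passed an adjusted p of 0.05 in the quasi-likelihood test of edgeR (p adjusted by Benjamini-Hochberg), both lower, where 2.47% of the 13548 genes tested passed in either direction. All 9 log2 fold changes were below 0, with a median of -0.57, against a median of 0.00 over all genes tested. Among the basal keratins 1 of 3 passed, among the stress keratins 1 of 4, and among the simple keratins neither of the 2 tested. Here and below, how many of all genes have groups that do not overlap was not counted, so such separation is only described.

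KRT14, the type I partner of KRT5, stood at 3396, 3317, 3361 and 4795 CPM in collagen replicates 1 to 4. In the DDR1i libraries it stood at 2200, 1620, 2225 and 2197 CPM. The groups did not overlap, and collagen replicate 4 was far above the other 3 of its group. KRT14 was 1.86 times lower with DDR1i (log2 fold change -0.90 ± 0.13 SE, adjusted p = 0.00123, edgeR). Without collagen replicate 4 the log2 fold change was -0.70 (adjusted p = 0.00204, edgeR), and with collagen replicate 3 included it was -0.86 (adjusted p = 0.00768, edgeR).

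KRT16, a type I stress keratin, stood at 86.5, 93.1, 63.0 and 84.2 CPM in collagen replicates 1 to 4. With DDR1i it stood at 38.4, 32.1, 38.7 and 42.2 CPM. The groups did not overlap, also with collagen replicate 3, which was the lowest of its group. KRT16 was 2.33 times lower with DDR1i (log2 fold change -1.22 ± 0.17 SE, adjusted p = 0.00112, edgeR). Including collagen replicate 3 gave -1.12 (adjusted p = 0.00768, edgeR). Leaving out each library in turn kept both KRT14 and KRT16 past the threshold in all 11 fits, wherever the library came from.

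KRT17, the third type I member of this trio, stood at 1858, 1795, 2471 and 3131 CPM in collagen and at 1176, 789, 1355 and 1497 CPM with DDR1i. The groups did not overlap, but the collagen libraries differed widely among themselves. The difference was similar in size to that of KRT14 and did not pass (log2 fold change -0.91 ± 0.28 SE, 95% interval -1.53 to -0.29, adjusted p = 0.118, edgeR). It passed with DESeq2 (adjusted p = 0.0463), without a filter on low counts (adjusted p = 8.31e-09, edgeR), with the trend on GC content removed (adjusted p = 0.0399, edgeR) and without RUNXi replicate 3 (adjusted p = 0.0424, edgeR), a library at 3380 CPM that is in the fit only through the shared estimate of the spread. With collagen replicate 3 included, the adjusted p was 0.272. The filter itself does not remove KRT17, which had at least 17725 counts in every library. Without the filter its log2 fold change was -0.92 with a smaller SE, 0.14. Against the control, the fit with DDR1i and no filter gave KRT17 an adjusted p of 0.651 (edgeR).

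Of the type II partners of these genes, KRT5 and KRT6A differed less. The third, KRT6B, had a log2 fold change of -0.79 with a wide interval, given below. KRT5 stood at 8936, 9027, 9275 and 11686 CPM in collagen and at 8600, 7084, 7564 and 8731 CPM with DDR1i. These groups did not overlap either, although DDR1i replicates 1 and 4 lay just below the collagen libraries. Its log2 fold change was -0.31 ± 0.12 SE (95% interval -0.54 to -0.07, adjusted p = 0.153, edgeR), and with collagen replicate 3 included it was -0.29 (adjusted p = 0.508, edgeR). KRT6A stood at 2915, 2954, 3277 and 4221 CPM in collagen and at 2761, 2380, 2764 and 3395 CPM with DDR1i, and the groups overlapped. Its log2 fold change was -0.25 (95% interval -0.53 to 0.02, adjusted p = 0.330, edgeR), and it was also -0.25 with collagen replicate 3 (adjusted p = 0.614, edgeR).

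**Figure D2:**
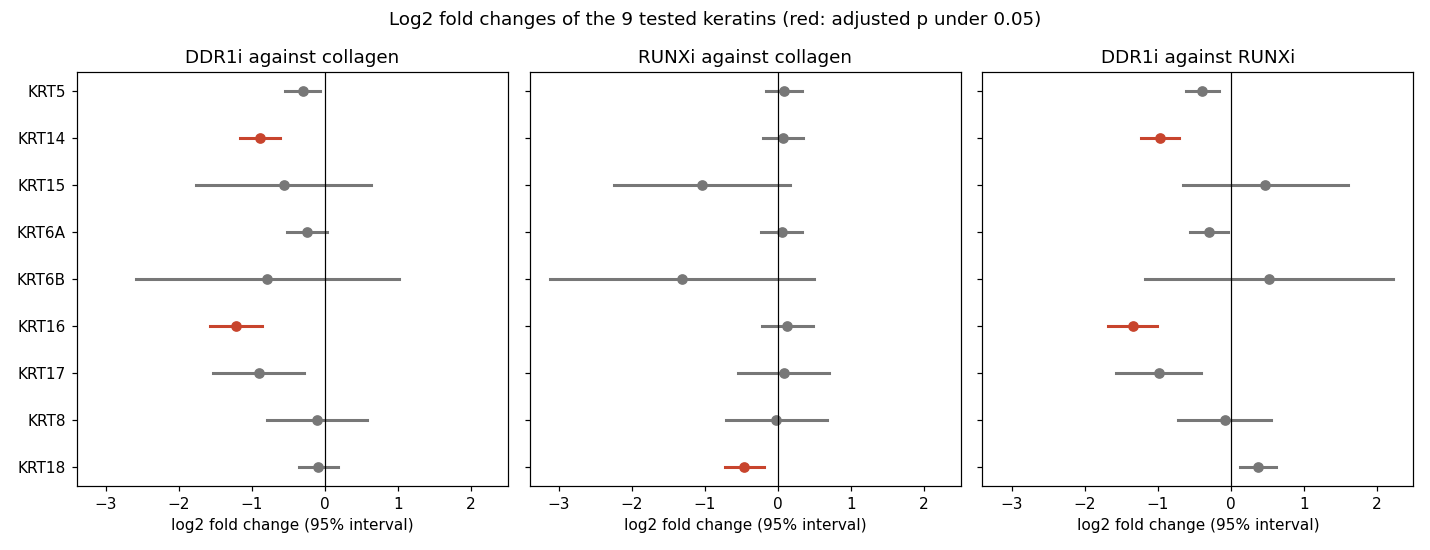
Log2 fold changes (horizontal axes) of the 9 tested keratins for DDR1i against collagen, RUNXi against collagen and DDR1i against RUNXi, with points for estimates and lines for 95% intervals from the fit without collagen replicate 3. Red marks an adjusted p under 0.05: KRT14 (-0.90) and KRT16 (-1.22) in the first panel, KRT18 (-0.46) in the second, and KRT14 (-0.97) and KRT16 (-1.35) in the third.

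The remaining keratins gave wide intervals with DDR1i. KRT15 had a log2 fold change of -0.57 (95% interval -1.77 to 0.63, adjusted p = 0.668, edgeR) and KRT6B one of -0.79 (95% interval -2.59 to 1.01, adjusted p = 0.690, edgeR). The simple keratins KRT8 (-0.11, adjusted p = 0.922) and KRT18 (-0.09, adjusted p = 0.790) were nearest to 0 in the same edgeR test. Their 95% intervals ran from -0.79 to 0.58 for KRT8 and from -0.35 to 0.17 for KRT18. With collagen replicate 3 included, the log2 fold changes were -0.49 for KRT15, -0.55 for KRT6B, -0.16 for KRT8 and 0.02 for KRT18, with adjusted p of 0.813, 0.895, 0.909 and 0.986 in edgeR. The interval of KRT8 allows a change as large as that measured for KRT5.

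Since KRT5 and KRT14 pair in one filament, their ratio was taken within each library. The ratio does not depend on the scaling of the library. It was chosen after the levels were known and is given as a description with no test. Per kilobase, KRT5 over KRT14 was 2.86, 3.20, 2.48 and 2.91 in the DDR1i libraries. It was 1.92, 1.99, 2.02 and 1.78 in collagen, 1.98, 1.93, 1.85 and 2.12 in the control, and 1.85, 1.90, 1.84 and 2.03 in RUNXi. The lowest DDR1i library was above the highest of the other 12. KRT6A over KRT16 was 51.3 to 57.8 with DDR1i and 18.9 to 43.3 in the other 12 libraries, and KRT6A over KRT17 was 1.34 to 1.98 with DDR1i and 0.683 to 1.28 elsewhere. KRT8 over KRT18, the simple pair, overlapped among all 4 groups (0.104 to 0.290 with DDR1i and 0.121 to 0.405 elsewhere). The type I members took 33.1% ± 2.00 (SD, n = 4) of the length-scaled counts of the 10 keratins with DDR1i, against 40.4% ± 1.94 (n = 4) in the control, 41.4% ± 1.70 (n = 3) in collagen and 40.9% ± 2.74 (n = 4) in RUNXi.

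**Figure D3:**
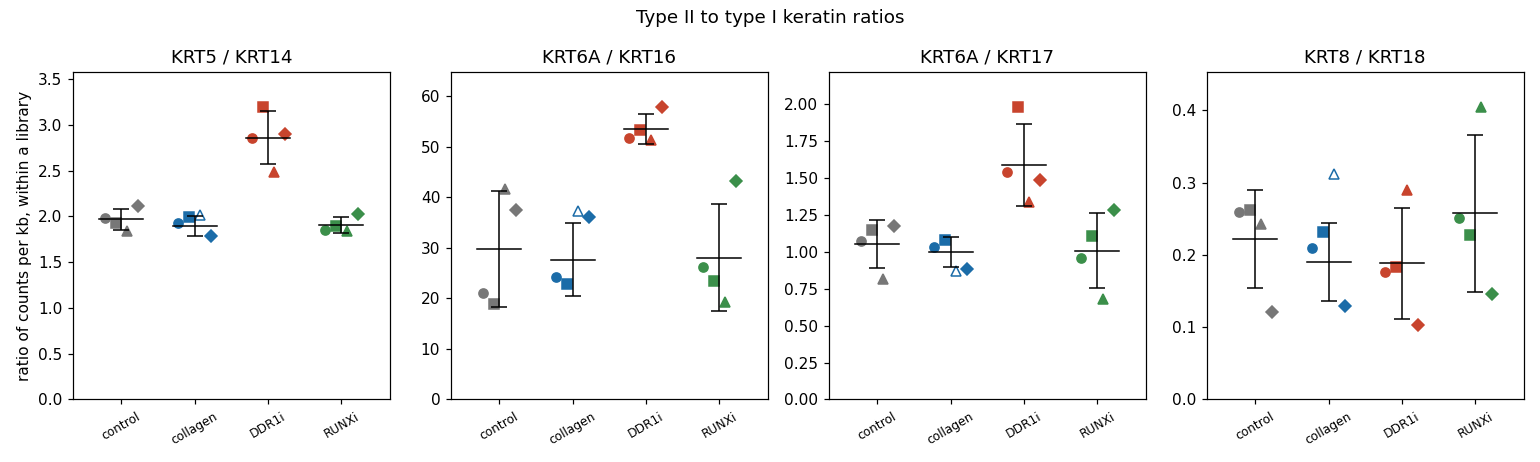
Ratios of type II to type I keratins within each library (vertical axes, counts per kilobase of transcript), by group. Symbols are libraries as in the plot of keratin levels, lines are means and bars SD, with collagen replicate 3 (open) left out of both. The 4 DDR1i libraries lie above the 12 others for KRT5/KRT14, KRT6A/KRT16 and KRT6A/KRT17, and overlap them for KRT8/KRT18.

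With RUNXi, KRT14 and KRT16 overlapped the collagen libraries, and KRT18 was the single keratin that passed. That is 1 of 9 tested, lower, where 4.05% of genes passed in either direction. This comparison and the previous one share the same 3 collagen libraries, so their values are set side by side only. The median log2 fold change of the 9 was 0.05, against 0.01 over all genes tested.

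KRT18, the type I partner of KRT8, stood at 434, 473, 342 and 581 CPM in collagen replicates 1 to 4 and at 360, 362, 328 and 393 CPM with RUNXi. The 4 RUNXi libraries lay below the 3 collagen libraries in the test, but 3 of them lay above collagen replicate 3. KRT18 was 1.37 times lower (log2 fold change -0.46 ± 0.13 SE, adjusted p = 0.0419, edgeR). With collagen replicate 3 included the log2 fold change was -0.35 (adjusted p = 0.322, edgeR). It also missed the threshold without collagen replicate 2 (adjusted p = 0.0567) or 4 (0.207), without DDR1i replicate 4 (0.0517), and without RUNXi replicate 1 (0.0795), 2 (0.0840), 3 (0.115) or 4 (0.0607), all in edgeR. With the trend on transcript length removed, or with all libraries numbered 4 left out, the adjusted p was 0.189 and 0.203.

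For the keratins that fell with DDR1i, RUNXi gave log2 fold changes near 0 against collagen: 0.07 for KRT14 (95% interval -0.20 to 0.35) and 0.13 for KRT16 (-0.22 to 0.48). KRT14 stood at 4267, 3907, 4224 and 3695 CPM in the RUNXi libraries and KRT16 at 89.3, 100.0, 131 and 64.2 CPM. Both sets of values overlapped collagen, and the KRT16 libraries spread widely. KRT5 (0.08), KRT6A (0.05), KRT17 (0.08) and KRT8 (-0.02) also had log2 fold changes close to 0, with adjusted p of 0.755, 0.892, 0.922 and 0.983 in the same edgeR test. In the fit that kept collagen replicate 3, KRT14 (0.10), KRT16 (0.22), KRT5 (0.09), KRT6A (0.05), KRT17 (0.03) and KRT8 (-0.08) also did not pass, the smallest of their adjusted p being 0.616 in edgeR.

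KRT15 and KRT6B had the largest differences with RUNXi and did not pass. KRT15 stood at 34.6, 34.7, 21.5 and 10.5 CPM in collagen and at 22.0, 14.7, 8.32 and 6.65 CPM with RUNXi (log2 fold change -1.04 ± 0.54 SE, adjusted p = 0.307, edgeR). KRT6B stood at 26.1, 25.5, 14.3 and 72.5 CPM in collagen and at 8.92, 10.4, 11.2 and 35.8 CPM with RUNXi (log2 fold change -1.31 ± 0.79 SE, adjusted p = 0.399, edgeR). Replicate 4 was the lowest of each group for KRT15 and the highest for KRT6B, and the groups overlapped in both genes. Keeping collagen replicate 3, the log2 fold changes were -0.97 for KRT15 (adjusted p = 0.408, edgeR) and -1.07 for KRT6B (adjusted p = 0.597, edgeR). Leaving out the libraries numbered 4 of all groups, an alternative chosen after the values were seen, gave -1.20 for KRT15 (adjusted p = 0.0236, edgeR) and -1.35 for KRT6B (adjusted p = 0.00641, edgeR). A fit with a term for the library number (replicate block) gave -0.96 for KRT15 (adjusted p = 0.0138, edgeR) and -1.27 for KRT6B (adjusted p = 0.000337, edgeR).

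For 4 of the 10 keratins, the library numbered 4 stood at the same end of its group in every group. How many of all genes do so was not counted, so the 4 cannot be called particular to keratins. Over all genes that passed the filter, deviations from group means correlated at 0.16 to 0.27 between libraries numbered 4. In all 4 groups the library numbered 4 was the highest for KRT6B and KRT6A and the lowest for KRT15 and KRT8. KRT6B was 2.94 to 4.78 times the mean of the other 3 libraries of its group, and KRT6A 1.16 to 1.38 times. KRT15 was 0.289 to 0.443 of that mean and KRT8 0.426 to 0.731. KRT5, KRT14, KRT16, KRT17, KRT18 and KRT19 showed no such place common to all 4 groups. KRT6C, the near copy of KRT6B, was 6.29 to 14.1 times the mean of the other 3. It reached 21.9, 25.0, 10.5 and 12.1 CPM in the libraries numbered 4 of control, collagen, DDR1i and RUNXi, and at most 2.71 CPM in the other 12. The labels do not say what the numbers stand for. The part of this difference in the results on KRT6B and KRT15 was measured by leaving these libraries out and by the replicate block.

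**Figure D4:**
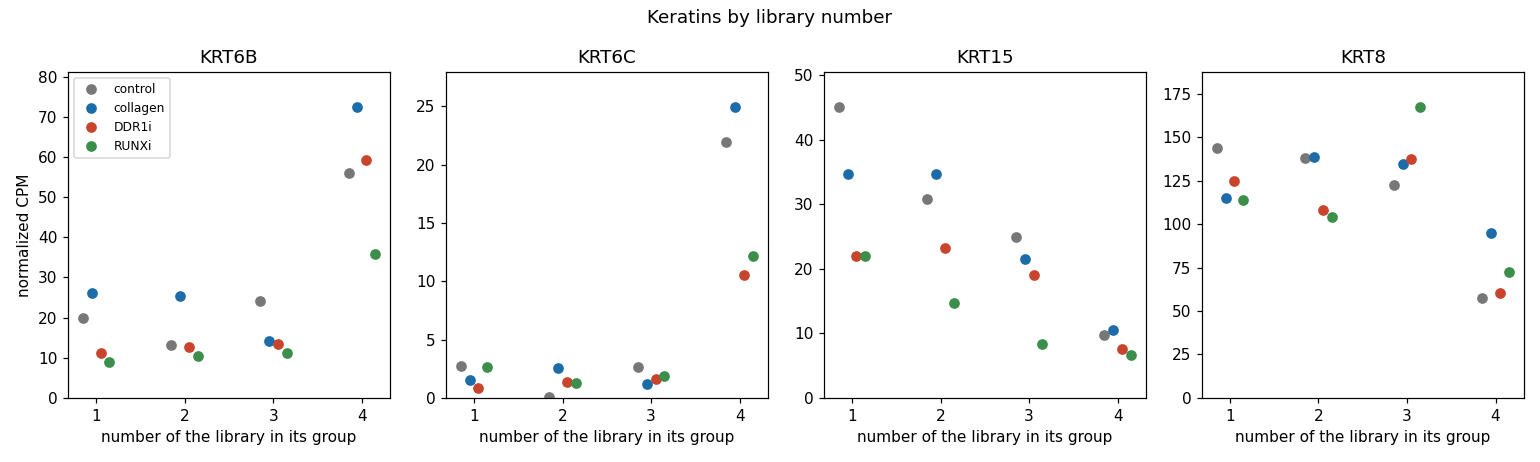
Normalized CPM (vertical axes, each from 0) of KRT6B, KRT6C, KRT15 and KRT8 by the number of the library in its group (horizontal axes), with points coloured by group. In each group the library numbered 4 is the highest for KRT6B and KRT6C and the lowest for KRT15 and KRT8.

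The inhibitors were then compared directly, in a test that uses no collagen library for the difference itself. KRT14 and KRT16 were lower with DDR1i than with RUNXi: 2 of 9 keratins passed, where 0.568% of genes passed in either direction. KRT14 was 1.95 times lower (log2 fold change -0.97 ± 0.12 SE, adjusted p = 6.76e-05, edgeR) and KRT16 2.54 times lower (log2 fold change -1.35 ± 0.16 SE, adjusted p = 2.82e-05, edgeR). For both genes every DDR1i library lay below every RUNXi library, and both passed in all 11 fits that left out 1 library. KRT17 stood at 2230, 1939, 3380 and 1979 CPM with RUNXi, all above DDR1i, and did not pass (log2 fold change -0.99 ± 0.26 SE, adjusted p = 0.257, edgeR). KRT5 stood at 10780, 10140, 10638 and 10262 CPM with RUNXi, also all above DDR1i (log2 fold change -0.39, adjusted p = 0.153, edgeR). Its adjusted p was 0.0244 with DESeq2, 0.0133 with the trend on transcript length removed and 0.00865 without collagen replicate 4. KRT18 was 0.37 higher on the log2 scale with DDR1i (95% interval 0.12 to 0.61, adjusted p = 0.302, edgeR), and KRT15 (0.47), KRT6B (0.52), KRT6A (-0.30) and KRT8 (-0.09) did not pass.

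Collagen alone gave no keratin call against the control, and none in the whole table. The share of genes that passed was 0.0% of 13092 in edgeR, with 1754 genes at an unadjusted p under 0.05, and DESeq2 called 414 genes, none of them one of these keratins. Of the 9 keratins, 1 had an unadjusted p under 0.05, namely KRT18 (log2 fold change 0.28, 95% interval 0.02 to 0.55, adjusted p = 0.336, edgeR). For KRT14 the log2 fold change was 0.11 (95% interval -0.19 to 0.40) and for KRT16 -0.01 (-0.42 to 0.39). KRT5 gave 0.05 (-0.21 to 0.30) and KRT6A -0.01 (-0.31 to 0.29).

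Against the control, which shares no library with collagen, KRT14 and KRT16 were again lower with DDR1i. This comparison uses the same 4 DDR1i libraries as before. With DDR1i 2 of 9 keratins passed, where 0.212% of 13213 genes passed. KRT14 stood at 3529, 3335, 4113 and 3280 CPM in the control, all above DDR1i, a log2 fold change of -0.79 ± 0.10 SE (adjusted p = 0.000616, edgeR). KRT16 stood at 109, 111, 62.3 and 73.3 CPM in the control, also all above DDR1i, a log2 fold change of -1.23 ± 0.20 SE (adjusted p = 0.00750, edgeR). Without control replicate 2, the shallowest library, KRT16 had an adjusted p of 0.0565 in edgeR. KRT17 (-0.85, adjusted p = 0.470) and KRT5 (-0.26, adjusted p = 0.415) did not pass in the same edgeR test, though for both every DDR1i library lay below every control library. With RUNXi 0 of 9 passed in edgeR or in DESeq2, where 0.401% of genes passed in edgeR, and 1 keratin, KRT15, had an unadjusted p under 0.05 (log2 fold change -1.09, adjusted p = 0.721). KRT18 was -0.18 there (95% interval -0.40 to 0.04, adjusted p = 0.811, edgeR).

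KRT19, a luminal type I keratin, was barely counted. It had 98 counts in all 16 libraries, of which 86 were in DDR1i replicate 1 (3.63 CPM) and 4 in DDR1i replicate 2. No other library had more than 3, and 9 libraries had 0, which allows up to 0.0870 to 0.238 CPM per library (3 counts of the scaled total, counting error only). Since 1 library holds most of the counts, no difference between groups was read from it.

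Across the 16 libraries, KRT14 and KRT5 had a Pearson correlation of log2 CPM of 0.93, KRT17 and KRT14 of 0.92, KRT6A and KRT5 of 0.85 and KRT16 and KRT14 of 0.83. KRT16 and KRT6A had a correlation of 0.41. These libraries share groups, scaling and treatment, so the values are descriptions. By the same measure over the 16 libraries, the 3 genes outside the keratins most like KRT16 were CCDC64 (0.83), CCNA1 (0.81) and ST6GALNAC4 (0.78). For KRT5 they were COPS7B (0.82), GCDH (0.81) and TRIM16 (0.81), and for KRT8 they were NIPSNAP1 (0.92), FBLN1 (0.91) and NINJ1 (0.88). CCNA1, a cyclin, averaged 60.1 CPM in the control, 57.2 in collagen, 27.7 with DDR1i and 53.1 with RUNXi.

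Of the 45 other keratins in the table, 12 were tested against collagen. None passed with DDR1i, where 2.47% of all genes passed, and 2 passed with RUNXi, both lower, where 4.05% of all genes passed. KRT7, a type II keratin of simple epithelia, stood at 2382, 2494, 2500 and 3281 CPM in collagen and at 1678, 1813, 1870 and 2071 CPM with RUNXi. The groups did not overlap (log2 fold change -0.55 ± 0.12 SE, adjusted p = 0.0165, edgeR), and the call held in 21 of 22 alternatives, with collagen replicate 3 included among them (adjusted p = 0.0489, edgeR). Against the control KRT7 did not pass with RUNXi (log2 fold change -0.36, adjusted p = 0.232, edgeR). The groups overlapped there, with control replicate 4 at 2001 CPM. KRT13, a type I keratin of stratified mucosa, had 43, 24, 10 and 86 counts in collagen and 0, 0, 0 and 2 with RUNXi (adjusted p = 0.0307, edgeR). It had 87, 0, 1 and 105 counts in the control and 0, 4, 15 and 1 with DDR1i. It passed in 11 of the 20 alternatives that tested it, and not with collagen replicate 3 included (adjusted p = 0.0976, edgeR). KRT81, a type II hair keratin, was the most abundant of the others at 3412 to 5538 CPM and did not pass in any of the 6 comparisons.

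Keratin filaments are anchored at desmosomes and hemidesmosomes, and some genes of these junctions rose against collagen. Of 17 such genes 4 rose and 1 fell with DDR1i against collagen, and 4 rose and none fell with RUNXi. Over all genes tested, 2.47% and 4.05% passed in these comparisons. The median log2 fold change of the 17 was 0.10 with DDR1i and 0.28 with RUNXi. ITGB4, the integrin subunit of hemidesmosomes, rose from 687 ± 33.6 CPM (SD, n = 3) in collagen to 1024 ± 214 (n = 4) with DDR1i (adjusted p = 0.0226, edgeR) and 1083 ± 99.2 (n = 4) with RUNXi (adjusted p = 0.0107, edgeR). PLEC, the linker plectin, rose from 934 ± 73.8 CPM to 2088 ± 655 with DDR1i (adjusted p = 0.0195, edgeR) and to 1716 ± 366 with RUNXi (adjusted p = 0.0451, edgeR). ITGA6, the partner of ITGB4, rose with RUNXi (log2 fold change 0.59, adjusted p = 0.0106, edgeR) and with DDR1i (0.44, adjusted p = 0.0471, edgeR), the latter named after its values were seen. DSG2, a desmosomal cadherin, rose with DDR1i, DSP, the desmosomal plakin, rose with RUNXi, and PERP, a desmosome-associated membrane protein, fell with DDR1i by 0.54 on the log2 scale. None of these calls held with collagen replicate 3 included, and against the control no anchoring gene passed as higher with either inhibitor. There DSG3, a desmosomal cadherin, and PPL, periplakin, were lower with DDR1i (adjusted p = 0.0422 and 0.0484, edgeR), where 0.212% of all genes passed. DSG3 was also lower with RUNXi (adjusted p = 0.0471, edgeR), where 0.401% passed. These calls held in 8, 7 and 7 of 22 alternatives. Without inhibitor, DSG3 averaged 62.9 CPM in collagen (n = 3) and 92.7 in the control, which had no collagen. Against collagen, its log2 fold change was -0.03 with DDR1i and 0.01 with RUNXi. That of PPL was -0.97 with DDR1i and did not pass.

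The 17 genes listed as candidate regulators of keratin transcription included RUNX1, CBFB and EGFR. Of these 17 genes, 16 were tested and none passed with either inhibitor against collagen. Over all genes, 2.47% (DDR1i) and 4.05% (RUNXi) passed there, so 0 of 16 is near these shares. Their smallest adjusted p against collagen in edgeR was 0.0806 (DDR1i) and 0.0752 (RUNXi). FOSL1, an AP-1 subunit, was higher with DDR1i, at 293 ± 43.7 CPM (SD, n = 4), than with RUNXi, at 166 ± 28.1 (n = 4, adjusted p = 0.0394, edgeR). It was also higher with DDR1i than in the control (adjusted p = 0.00395, edgeR). Over all genes tested, 0.568% passed between the inhibitors and 0.212% with DDR1i against the control.

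Of 11 squamous differentiation genes tested against collagen, 4 fell with DDR1i and 3 fell with RUNXi, none rose, and the other 7 and 8 did not pass. Over all genes tested, 2.47% and 4.05% passed in these comparisons. CSTA, a cystatin of the cornified envelope, fell from 146 ± 32.1 CPM (SD, n = 3) in collagen to 78.9 ± 10.8 (n = 4) with DDR1i (adjusted p = 0.00401, edgeR) and 81.9 ± 13.5 (n = 4) with RUNXi (adjusted p = 0.00421, edgeR). SPRR1B, an envelope precursor, fell from 35.4 ± 14.3 CPM to 7.77 ± 3.94 with RUNXi (adjusted p = 0.0131, edgeR). TGM1, S100A9 and S100A8 fell with DDR1i, and S100A9 with RUNXi. With collagen replicate 3 included, none passed with DDR1i and 1 passed with RUNXi. Against the control, edgeR called 0 of 10 and DESeq2 1 of 11 with DDR1i, and with RUNXi edgeR called 1 of 10, SPRR1B (log2 fold change -1.94, adjusted p = 0.00279), where 0.212% and 0.401% of all genes passed in edgeR. CSTA was -0.21 with DDR1i (adjusted p = 0.998) and -0.15 with RUNXi (adjusted p = 0.911) on the log2 scale there, in edgeR. No gene of this list passed between the inhibitors.

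Among markers of other cell types a few genes passed. Over all genes tested, 2.47% passed with DDR1i against collagen, 4.05% with RUNXi against collagen and 0.568% between the inhibitors. Of 9 luminal markers tested, CLDN7 fell with DDR1i, CLDN7 and CD24 fell with RUNXi, and CD24 was higher with DDR1i than with RUNXi (log2 fold change 0.87, adjusted p = 0.00349, edgeR). Of 5 myoepithelial markers tested, TAGLN fell with RUNXi against collagen (log2 fold change -1.22, adjusted p = 0.00226, edgeR) and none passed with DDR1i. In the fit that kept collagen replicate 3, CLDN7 passed with neither inhibitor (adjusted p = 0.436 with DDR1i and 0.289 with RUNXi, edgeR), while CD24 and TAGLN still passed with RUNXi. None of the 3 fibroblast markers tested passed. Against the control no luminal or myoepithelial marker passed with either inhibitor, the smallest adjusted p being 0.220 in edgeR. Over all genes, 0.212% (DDR1i) and 0.401% (RUNXi) passed there. The summed luminal markers ranged from 155 to 201 CPM in collagen, from 143 to 174 with DDR1i and from 141 to 248 with RUNXi, and their part in the keratin results was not tested.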

How the data were processed

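RNA-seq of MCF10A cells was analysed from 16 libraries, grouped and numbered from the labels, with doses and times from the study's methods. The authors aligned reads to GRCh37 with STAR and deposited raw counts per gene. The counting tool, its annotation and its use of strand are not given in the sources used here. Organoid libraries of the study were not used here.

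Counts were tested with edgeR 4.0.16 (R 4.3.3) by TMM scaling, filterByExpr and robust quasi-likelihood fits, with Benjamini-Hochberg adjustment over all genes tested and a threshold of 0.05. The inhibitors and collagen were fitted together (11 libraries, 13548 genes), collagen with control (7, 13092) and the inhibitors with control (12, 13213), all without collagen replicate 3, as in the study. DESeq2 1.42.0 was an alternative. Others were DESeq2 size factors, filters, a replicate block, trends on length and GC content, and each library left out. Scripts were tested on simulated data.

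The members and lists were chosen with earlier results of these data known. The text names all members and, per context list and comparison, at most the 4 called genes with the smallest adjusted p. Lists were other keratins, anchoring, regulator and squamous genes, and luminal, myoepithelial and fibroblast markers. Lengths and coordinates were those of GENCODE as lifted to GRCh37, which matched 20676 names (90.6% of genes tested). All 24 pairs of replicates differed beyond counting noise (lowest chi-square per degree of freedom 18.3). Total counts of 12184619 to 44332378 per library set the precision of low genes. Coding sequences were compared between genes, and the sequences themselves are not reported here.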

Additional observations from a re-analysis of the deposited data

Results flagged for a closer look

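In a group of 4 libraries, a value was singled out when the gap from the highest or lowest library to its nearest neighbour, divided by the range of the group, exceeded Dixon's 95% critical value. Of 88 groups of keratin levels and ratios, 9 exceeded it, where chance gives about 4.4. Collagen replicate 4 was the high library for KRT5 (0.877) and KRT14 (0.947). DDR1i replicate 2 was the low library for KRT14 (0.953). The library numbered 4 was the high one for KRT6B in DDR1i (0.952) and in RUNXi (0.917). DDR1i replicate 1 was the high library for KRT19 (0.951), and a single count in RUNXi replicate 4 gave a ratio of 1 for the same gene there. In the control, replicate 4 was low for KRT8 over KRT18 (0.862). In RUNXi, replicate 3 was high for KRT17 over KRT14 (0.871). Their causes were not tested.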

How the results depend on the processing

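The 7 called differences kept their sign in all 154 alternatives, and no alternative called a keratin in the opposite direction. Of the 47 differences that did not pass, 25 changed sign under at least 1 alternative. For DDR1i against collagen, 2 keratins passed, 4 without a filter on low counts and 4 with a replicate block, and 2 to 3 when 1 library was left out. For RUNXi against collagen, 1 passed, 3 without the filter, 0 with collagen replicate 3 included, 0 with the trend on length removed, and 0 to 1 when 1 library was left out. For DDR1i against control, 2 passed, and 1 to 2 when 1 library was left out.

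Replicate numbers are shared between groups, but the labels tie them to no culture or day. Deviations from group means correlated at -0.09 to 0.27 over the 24 pairs with the same number, against -0.18 to 0.19 over the 72 with different numbers, and at 0.16 to 0.27 between libraries numbered 4. With the replicate block, 3 keratins passed for RUNXi against collagen, 3 for DDR1i against RUNXi, 3 for DDR1i against control and 2 for RUNXi against control. The calls gained were KRT17 with DDR1i in all 3 of its comparisons, KRT6B with DDR1i against collagen, and KRT15 and KRT6B with RUNXi against both references. In the whole table the block moved the calls from 334 to 537, from 549 to 759, from 77 to 154, from 28 to 116 and from 53 to 162. DESeq2 called 857, 1160, 134, 66 and 112 genes in these 5 comparisons.

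Alternatives chosen after the data were seen were the block with collagen replicate 3 included (2 keratins passed for RUNXi against collagen), leaving out all libraries numbered 4 (also 2), and leaving out the 2 shallow control libraries. Depth limits KRT19. KRT6B (166 to 1933 counts per library) and KRT15 (119 to 2028) have wide intervals from the spread between libraries: the SE of KRT6B for RUNXi against collagen was 0.79, and 0.18 with the replicate block.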
